A study of Mus musculus with 2 samples.

Results

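S100 genes encode small dimeric proteins that bind calcium through EF-hand loops and then grip partner proteins. The 10 S100 genes considered here were S100a1, S100a4, S100a6, S100a8, S100a9, S100a10, S100a11, S100a13, S100a14 and S100g, and a gene was measured where a probe set of the array named it and no other gene. By this rule 9 of the 10 were measured, of 30142 genes in all. The probe set that carries S100a11 also names 2 pseudogenes, Gm12854 and Gm5068 (now S100a11-ps), and is therefore described apart from the 9. No value in the data was used to choose these genes, although earlier results of the same arrays were known.

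RNA came from PiZ mouse liver, which is C57BL/6 liver with a transgene for the human Z mutant of alpha-1-antitrypsin (ATZ) under that gene's own promoter. The mutant protein aggregates in hepatocytes as globules. Globule-containing and globule-free areas were cut by laser from Cresyl Violet-stained frozen sections of untreated mice aged 3 months, and both groups carry the transgene, so no liver without ATZ is part of the comparison. Each group is 1 array of RNA pooled from 2 mice, which leaves no replicates: every difference below is between 2 arrays, with no test, no standard error and no measure of the spread between mice.

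In the textbook view, S100a8 and S100a9 are produced mainly by neutrophils and monocytes, pair as calprotectin, bind zinc and manganese, and act outside the cell on the receptors Tlr4 and Ager. S100a4 and S100a6 are proteins of fibroblasts and other motile or proliferating cells, with S100a4 also present in myeloid cells. S100a10 and S100a11 are the partners of annexins A2 and A1, S100a14 belongs to epithelia, S100g carries calcium through intestinal epithelium under vitamin D, S100a1 is best known from muscle, and S100a13 takes part in the export of Fgf1. Captured areas hold every cell within the cut, so fewer cells of a type and less RNA per cell cannot be told apart.

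The promoters shown first belong to the largest deposited differences toward globule-containing areas, those of S100a8, S100a9, S100g and the S100a11 probe set. S100a6 and S100a10 were higher too. S100a6 differed by 2.08, and S100g by 2.42, or 1.76 with its dim value raised to background. The S100a6 window, which held no motif match, is not printed, and S100a10 has no window. RefSeq's promoter table (GRCm38.p6) has a window of 250 bases before to 50 after the gene start for 8 of the 10 genes. Each line runs 5′ to 3′ on the gene's strand, and capitals mark exact matches, on either strand, to 7 motifs searched in every window.
S100a8, chr3:90668821-90669120, plus strand: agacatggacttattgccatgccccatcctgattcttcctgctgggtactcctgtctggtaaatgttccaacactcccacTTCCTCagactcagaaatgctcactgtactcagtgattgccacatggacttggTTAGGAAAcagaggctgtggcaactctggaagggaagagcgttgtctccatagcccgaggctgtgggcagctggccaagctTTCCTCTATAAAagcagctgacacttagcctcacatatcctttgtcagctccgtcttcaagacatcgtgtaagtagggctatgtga
S100a9, chr3:90695672-90695971, minus strand: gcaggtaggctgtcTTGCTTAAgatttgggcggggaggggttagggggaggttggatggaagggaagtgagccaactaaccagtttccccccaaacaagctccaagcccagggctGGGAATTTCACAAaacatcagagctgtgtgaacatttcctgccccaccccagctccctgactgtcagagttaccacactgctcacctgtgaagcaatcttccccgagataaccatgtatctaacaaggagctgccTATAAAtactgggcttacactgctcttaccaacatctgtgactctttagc
S100g, chrX:162964550-162964849, minus strand: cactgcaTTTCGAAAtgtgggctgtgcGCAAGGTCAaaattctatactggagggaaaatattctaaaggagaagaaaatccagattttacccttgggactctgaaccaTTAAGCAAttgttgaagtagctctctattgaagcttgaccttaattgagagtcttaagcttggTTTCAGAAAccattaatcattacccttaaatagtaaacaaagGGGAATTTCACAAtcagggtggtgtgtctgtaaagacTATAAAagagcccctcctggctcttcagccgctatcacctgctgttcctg
S100a11, chr3:93520246-93520545, plus strand: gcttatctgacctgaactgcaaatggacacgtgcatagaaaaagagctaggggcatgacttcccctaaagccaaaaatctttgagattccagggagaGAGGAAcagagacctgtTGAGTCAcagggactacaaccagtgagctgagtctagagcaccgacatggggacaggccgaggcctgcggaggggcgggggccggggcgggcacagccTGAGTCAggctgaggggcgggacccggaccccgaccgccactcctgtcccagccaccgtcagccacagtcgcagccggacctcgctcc

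The motifs were the TATA box TATAAA, the C/EBP motif TTNNGNAA, the NF-kB motif GGGANTTNC, the AP-1 motif TGANTCA, the PU.1 motif GAGGAA, the STAT motif TTCNNNGAA and the antioxidant response element TGACNNNGC. The TATA box was found in 4 of the 8 S100 windows, those of S100a8, S100a9, S100a4 and S100g, while 13.6% of all 32851 windows of this length hold it. In the S100a8 window it begins 30 bases before the annotated start, with a PU.1 match directly before it. In the S100a4 window it begins 31 bases before the annotated start. In the S100a9 and S100g windows it begins at the annotated start itself, not upstream of it. C/EBP matches stood in 3 of the 8 windows (S100a8, S100a9 and S100g), against 40.7% of all windows. An NF-kB match stood in 2, S100a9 and S100g, against 4.26% of all windows, and in both it overlaps a C/EBP match. The overlapping pair forms the same 13 bases, GGGAATTTCACAA, in both, a stretch that occurs in these 2 windows only of the 32851; it was looked for after the matches had been seen. The AP-1 motif occurred in 1 S100 window, that of S100a11, at 2 places, against 7.81% of all windows. PU.1 matches lay in 3 windows (S100a4, S100a8 and S100a11, against 28.3% of all), the antioxidant response element in 1 (S100g, against 12.4%) and the STAT motif in none (against 8.30%). Windows of S100a1, S100a6 and S100a13 held none of the 7 motifs. A match describes letters only, and binding was not measured.

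S100a1 and S100a13 are neighbours that point away from each other, and their 300-base windows share 204 bases, in capitals below on the strand of S100a13.
S100a13, chr3:90514185-90514484, plus strand: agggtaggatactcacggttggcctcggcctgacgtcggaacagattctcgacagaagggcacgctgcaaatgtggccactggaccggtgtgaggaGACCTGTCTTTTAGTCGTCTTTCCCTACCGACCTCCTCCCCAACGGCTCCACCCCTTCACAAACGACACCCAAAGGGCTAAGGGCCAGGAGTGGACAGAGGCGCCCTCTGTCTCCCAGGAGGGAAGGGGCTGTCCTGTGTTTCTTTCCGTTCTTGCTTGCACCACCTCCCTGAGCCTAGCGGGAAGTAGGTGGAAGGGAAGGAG
The annotated starts of these windows lie 105 bases apart. As described further on, they are the 2 measured S100 genes that were lower in globule-containing areas.

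Of the 9 measured S100 genes, 5 had a signal higher by 2-fold or more in globule-containing than in globule-free areas, 2 had a signal lower by as much, and 2 lay within 2-fold. S100a8, S100a9, S100a6, S100g and S100a10 were the higher ones, and S100a1 and S100a13 the lower ones. Over all 15023 genes whose mean signal lay above a floor of 4.76 on the log2 scale, 972 (6.47%) were higher by 2-fold or more and 790 (5.26%) lower by as much. The other 13261 lay within 2-fold. The 9 S100 genes all lay above this floor, and their median difference was 1.49, beside 0.05 over all 15023 genes. S100a10 and S100g passed the floor only through the globule-containing array, as their globule-free signals were 4.69 and 4.36. Both are among the 5 higher genes, and the median of 1.49 is the difference of S100a10 itself. All signals are the deposited log2 values per probe set, and a difference is globule-containing minus globule-free; "with globules" and "without" below stand for these areas. Scaled to the array's 4 hybridisation controls, the median over all genes was 0.62, with 3414 genes higher and 349 lower by 2-fold or more. These controls belong to the hybridisation step and do not measure the amount of input RNA. Signals at or below 4.85 (globule-containing) or 5.02 (globule-free) were taken as background, a level that 95% of 1530 probe sets for olfactory or vomeronasal receptors do not exceed. Where the globule-free signal lay at background, it was raised to that level and the fold is given as "at least".

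**Figure D1:**
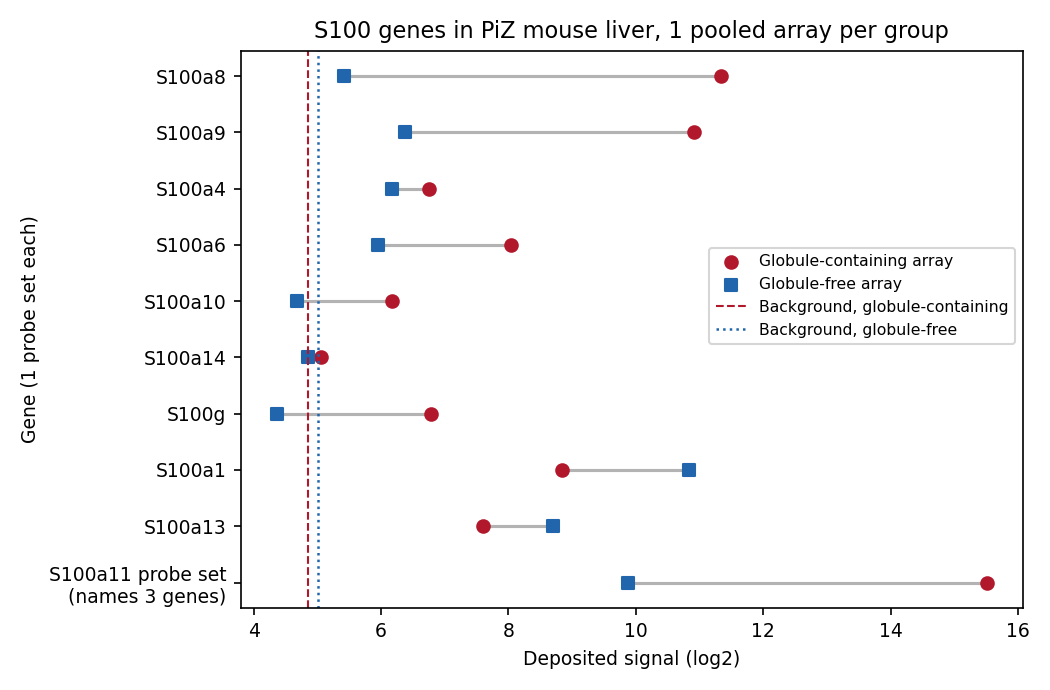
Deposited log2 signal (horizontal axis) of the 9 measured S100 genes and of the S100a11 probe set, with 1 point per array: red circles are globule-containing and blue squares globule-free areas. The vertical lines mark the background of each array, at 4.85 (globule-containing) and 5.02 (globule-free). S100a8 and S100a9 have the widest gaps among the 9 genes, S100a10, S100a14 and S100g have globule-free points left of the background line, and S100a1 and S100a13 have their globule-containing points on the left.

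The myeloid pair differed most of the 9. S100a8 had a signal of 11.34 (log2) on the globule-containing array and 5.42 on the globule-free array. The globule-free value was not far above background, and the difference of 5.92 is 60.7-fold. Its partner S100a9 had 10.91 on the globule-containing array and 6.37 on the globule-free array, a difference of 4.54 or 23.2-fold. Among the 15023 genes above the floor, S100a8 ranked 8th and S100a9 23rd by difference. The globule-free signal of S100a9, unlike that of S100a8, lay more than 1 log2 unit above background. The median of the pair was 5.23, against 0.58 for the other 7 measured genes, whose differences spread between -2.0 and 2.42. With S100a4 counted as a myeloid gene the medians were 4.54 (myeloid) and 0.85 (the others).

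Neutrophil markers were not high on either array. Of 17 measured, 10 lay at or below background on both arrays, among them the granule genes Mpo, Elane, Ltf and Ngp. Ly6g, a surface protein of neutrophils, had 5.35 on the globule-containing array and 5.07 on the globule-free array. Of the 6 neutrophil markers above the floor, 1 was at least 2-fold higher, the integrin subunit Itgam of neutrophils and macrophages, at 6.53 with globules against 4.83 without, at least 2.85-fold. Ctsg, cathepsin G, had 4.76 with globules, at background, against 5.25 without. Retnlg, a resistin-like gene of neutrophils that lay below the floor, had 5.11 with globules, above background, against 3.92 without, at least 1.07-fold. The summed signal of all 17 markers was 9.0 (globule-containing) and 8.78 (globule-free) on the log2 scale. Monocyte markers were higher in part: of 7 above the floor, 4 were higher by 2-fold or more and 1 (Fn1, fibronectin) was lower by as much, and the median was 1.01. The summed signal of the 9 monocyte markers measured ran the other way, at 14.87 (globule-containing) and 15.85 (globule-free). This sum was almost wholly that of Fn1, at 14.81 with globules against 15.82 without, and so does not describe the other monocyte markers. Ms4a4c had 6.62 with globules against 4.83 without, at least 3.02-fold, Plac8 had 7.17 with globules against 5.84 without, 2.51-fold, and the chemokine receptor Ccr2 had 6.16 with globules against 4.99 without, at least 2.20-fold. The remaining one, the Fc receptor Fcgr1, had 5.86 with globules against 4.85 without, at least 1.79-fold, so that 3 are counted when dim values are raised to background. The monocyte median changes sign with a higher floor, to -0.53 at the 75th percentile. Only Fn1 and Ly6c2, at 9.57 with globules against 9.63 without, lie above that floor.

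Macrophage markers were higher in part on the globule-containing array, beside S100a8 and S100a9. Of 17, 10 were higher by 2-fold or more and none was lower by as much. The median difference of the 17 was 1.90. The 7 within 2-fold were Lgals3, Trem2, Mpeg1, Adgre1, C1qa, C1qb and C1qc. Adgre1 had 7.69 with globules against 7.57 without. The differences of C1qa, C1qb and C1qc were 0.05, 0.04 and -0.08. Gpnmb, a glycoprotein of lipid-laden macrophages, had 13.27 with globules against 5.16 without, Lyz2, the macrophage lysozyme, 17.96 with globules against 12.62 without, and Ctss, cathepsin S, 15.15 with globules against 10.07 without. Their summed signal was 18.45 (globule-containing) and 13.74 (globule-free), led by Lyz2. Markers of resident Kupffer cells lay the other way, with 5 of 7 lower by 2-fold or more, a median of -1.98 and summed signals of 10.11 (globule-containing) and 12.47 (globule-free). Clec4f had 6.96 with globules against 10.01 without, Cd5l 7.15 with globules against 9.83 without and Vsig4 9.23 with globules against 11.67 without. The part of these cell types in the S100 differences was not tested.

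**Figure D2:**
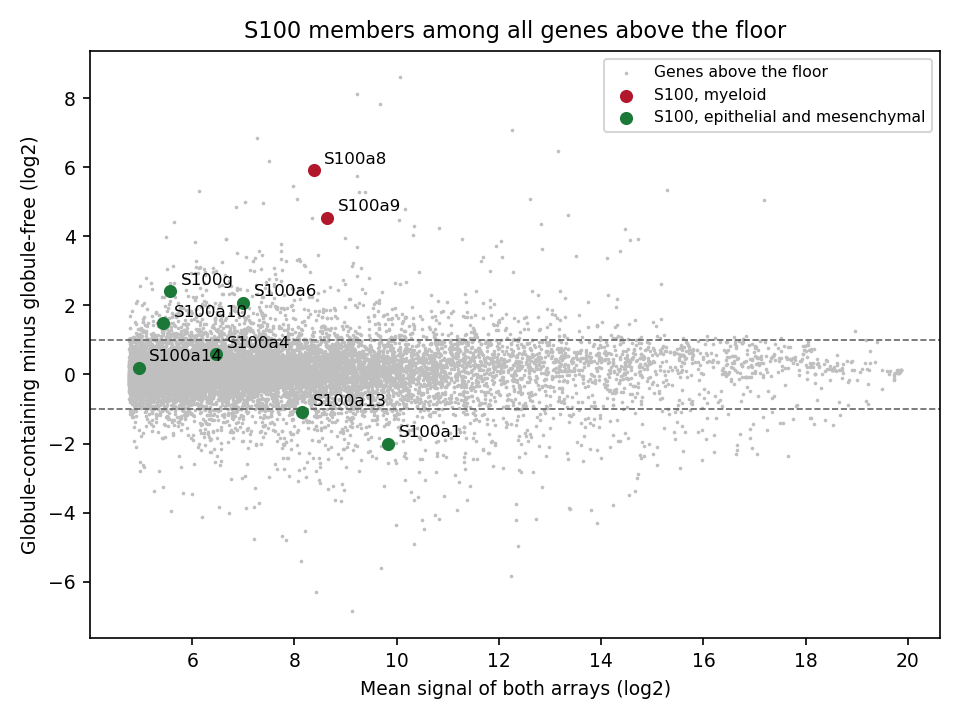
Difference between globule-containing and globule-free areas (vertical axis, log2) against the mean signal of both arrays (horizontal axis, log2) for the 15023 genes above the floor in grey, 1 point per gene, with myeloid S100 genes in red and epithelial and mesenchymal ones in green. Dashed lines mark 2-fold. S100a8 and S100a9 stand at 5.92 and 4.54 among the most positive genes, and S100a1 stands lowest of the 9, at -2.0.

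Of the genes tied to fibroblasts and motile cells, S100a6 was higher and S100a4 was within 2-fold. S100a6, calcyclin, had 8.04 on the globule-containing array and 5.96 on the globule-free array, 4.23-fold higher, both above background. S100a4, also known as fibroblast-specific protein, had 6.76 on the globule-containing array and 6.18 on the globule-free array, a difference of 0.58, or 1.15 when scaled to the hybridisation controls. These genes stand 1 gene apart on chromosome 3, with S100a5 between them at background on both arrays. Stellate cell and fibroblast markers were at least 2-fold higher for 11 of 13 genes, with a median of 2.17 and summed signals of 15.69 (globule-containing) and 12.39 (globule-free). Lum, lumican, had 13.24 with globules against 9.32 without, Lrat, which esterifies retinol, 9.10 with globules against 5.64 without, and Dcn, decorin, 15.22 with globules against 11.80 without. The difference of S100a4 was smaller than that of 12 of these 13 markers. Whether these cells carry the S100a6 signal was not tested.

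Of the annexin partners, S100a10 was higher, as were most annexins above the floor, and S100a11 could not be read on its own. S100a10, also called p11, is the light chain of the annexin A2 tetramer and, unlike most S100 proteins, does not respond to calcium. It had 6.18 on the globule-containing array and 4.69 on the globule-free array, where it lay at background, so it was at least 2.24-fold higher. Its partner Anxa2 had 9.86 with globules against 4.90 without, also from background, at least 28.6-fold higher. The S100a11 probe set had 15.52 on the globule-containing array and 9.87 on the globule-free array, a difference of 5.65 or 50.1-fold. Because it names 3 genes, this value cannot be assigned to S100a11 alone. The pseudogenes have probe sets of their own, at 5.69 with globules against 5.21 without for Gm12854 and 5.54 with globules against 5.36 without for S100a11-ps, both within 2-fold. Anxa1, the annexin that S100a11 binds, had 7.89 with globules against 6.32 without, 2.96-fold higher.

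Of 13 genes in the list of annexins and Ahnak, 11 were measured and 8 lay above the floor. Of these, 6 were higher by 2-fold or more and none was lower by as much; the median was 1.72. Besides Anxa2, Anxa5, which binds phosphatidylserine, had 15.79 with globules against 12.42 without, 10.3-fold higher, and Anxa4 had 11.92 with globules against 8.96 without, 7.80-fold higher. With dim values raised to background, the median was 1.65. S100a10 and Anxa2 were both listed at background in globule-free areas, so that the folds of both are lower bounds.

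Among the epithelial genes, S100g was higher and S100a14 was hardly above background. S100g had 6.78 in globule-containing areas and 4.36, below background, in globule-free areas, at least 3.40-fold higher. It is the only member on the X chromosome. S100a14 had 5.06 on the globule-containing array and 4.86 on the globule-free array. The first value is just above background and the second below it, at least 1.03-fold, so no difference could be seen at this signal. Cholangiocyte markers, as a check on bile duct epithelium in the cut areas, were within 2-fold for 4 of 5 genes above the floor, with a median of 0.36. Bicc1 had 6.81 with globules against 5.03 without, 3.44-fold higher, Epcam had 5.77 with globules against 4.81 without, at least 1.69-fold, and Pkhd1 had 5.48 with globules against 5.12 without. Krt7, Cftr and Cldn4 lay at background on both arrays, and the summed signals were 8.69 (globule-containing) and 8.06 (globule-free). Mesothelial markers lay at background on both arrays for 5 of 6 genes, with Upk1b at 5.03 with globules against 4.57 without; Gpm6a, 1 of the 5, had 4.82 with globules against 4.76 without. Of 10 markers of T, B and NK lymphocytes, 8 did so, and Nkg7 had 5.16 with globules against 4.77 without and Cd3g 5.37 with globules against 5.21 without. Of the genes tied to S100g in calcium transport, the vitamin D receptor Vdr and the channel Trpv6 lay at background on both arrays. The calcium pump Atp2b1 lay above background on both, at 8.93 with globules against 8.36 without.

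S100a1 and S100a13 were lower. S100a1 had 8.84 on the globule-containing array and 10.84 on the globule-free array, 4.0-fold lower. S100a13 had 7.60 on the globule-containing array and 8.70 on the globule-free array, 2.14-fold lower. Both stood well above background on both arrays. Scaled to the array's hybridisation controls, S100a13 differed by -0.53 and was within 2-fold, while S100a1 stayed lower, at -1.43. Fgf1, the growth factor whose export involves S100a13, had 5.12 with globules against 5.60 without. Whether probes of these adjacent genes tell their RNA apart was not tested. The 10 hepatocyte markers measured all lay above background on both arrays; their median difference was -0.20, or 0.37 when scaled to the hybridisation controls, and 2 were at least 2-fold lower. These were Cps1, carbamoyl phosphate synthetase of the urea cycle, at 16.48 with globules against 18.85 without, and Cyp2f2, at 15.89 with globules against 18.20 without, both genes of periportal hepatocytes. Apoa1 had 18.25 with globules against 19.05 without.

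Position on chromosome 3 was compared next, since 9 of the 10 genes lie there. From S100a1 to S100a9, RefSeq lists 12 protein-coding genes in a row, all of them S100 genes, and 7 of the 10 are among these. Their differences along that order were -2.0 (S100a1), -1.10 (S100a13), 0.20 (S100a14), 0.58 (S100a4), 2.08 (S100a6), 5.92 (S100a8) and 4.54 (S100a9). The lower genes stand at the S100a1 end and the highest at the S100a9 end. S100a16 lies between S100a14 and S100a4, at 6.95 with globules against 7.24 without, and S100a3, S100a2, S100a5 and S100a7a were at or below background on both arrays. Beyond S100a1, the 5 nearest genes were all within 2-fold, as were 13261 of the 15023 genes above the floor. The differences of these 5 lay between -0.48 (Ilf2) and 0.40 (Ints3). Beyond S100a9, Pglyrp4 lay at background on both arrays. These neighbours were chosen by position after the values of the S100 genes had been seen.

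**Figure D3:**
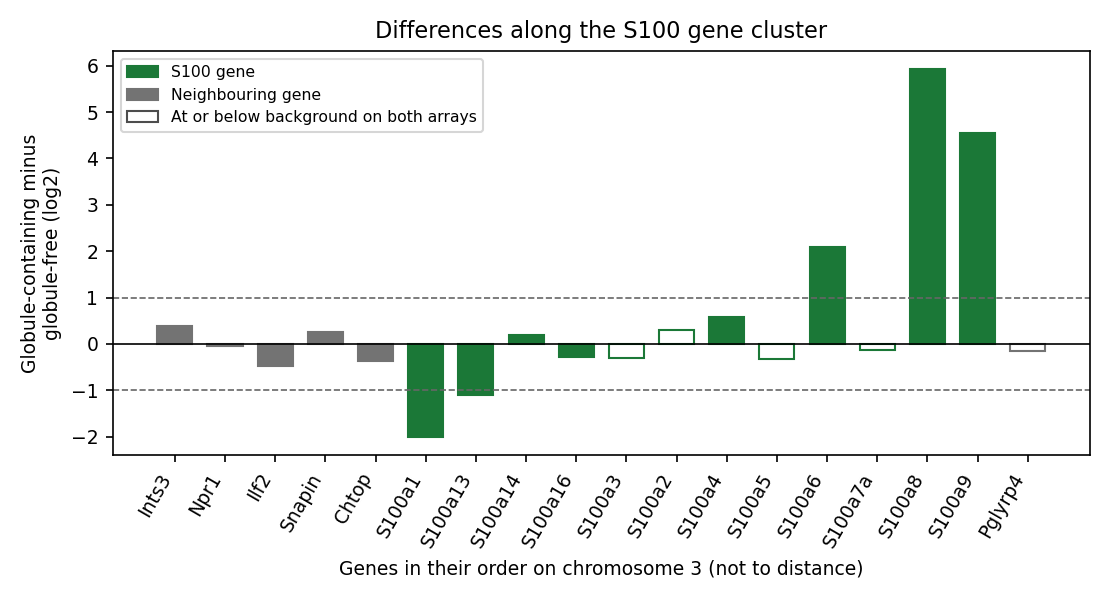
Difference between globule-containing and globule-free areas (vertical axis, log2) of genes in their order on chromosome 3, with distances not to scale; bars are 1 difference each, S100 genes in green, neighbours in grey and genes at or below background on both arrays unfilled. Dashed lines mark 2-fold. Bars go down at S100a1 and S100a13, and up at S100a6, S100a8 and S100a9, and the 5 neighbours on the left stay between the dashed lines.

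S100a11 and S100a10 form a pair of direct neighbours on the same chromosome, separated from S100a9 by 56 protein-coding genes, many of them of the epidermal differentiation complex, which builds the cornified layer of skin. Of 19 measured genes of this complex in the list, 13 lay at background on both arrays. Sprr1a, a cornified envelope precursor, had 10.70 on the globule-containing array and 3.85 on the globule-free array, at least 51.2-fold higher. It was the only 1 of the 6 above the floor that was at least 2-fold apart. Lor, loricrin, had 6.23 with globules against 5.59 without and Smcp 6.18 with globules against 5.63 without. Of the fused-type S100 genes, 6 of 7 were at background on both arrays, and Flg, filaggrin, had 6.12 with globules against 6.01 without. Of the 8 other S100 genes, S100b and S100z too were at or below background on both arrays. S100a7l2 had 4.46 in globule-containing areas, which is background, and 5.20 in globule-free areas, at least 1.27-fold lower. None of these 8 was at least 2-fold apart.

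Receptors of extracellular S100 proteins showed no common direction. Of 12 receptors and adaptors, 3 were higher by 2-fold or more and none was lower by as much; the median was 0.18. Tlr4, the endotoxin receptor that S100a8 and S100a9 activate, had 6.44 with globules against 6.65 without. Ager, the receptor for advanced glycation end products, had 5.15 with globules against 5.24 without, close to background on both arrays. Cd36, a scavenger receptor that takes up fatty acids carried by S100a8 and S100a9, had 13.86 with globules against 11.44 without, 5.34-fold higher. Cd14, the co-receptor of Tlr4, had 7.34 with globules against 5.03 without, 4.97-fold higher, and Alcam, an adhesion molecule, 12.76 with globules against 11.23 without, 2.88-fold higher.

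Intracellular targets and other EF-hand proteins were mostly within 2-fold, as were 13261 of the 15023 genes above the floor. Of 16 targets and regulators above the floor, 1 was at least 2-fold higher, the transglutaminase Tgm2, at 10.64 with globules against 9.03 without, 3.06-fold. Cacybp, the calcyclin-binding protein that S100a6 engages, had 10.21 with globules against 9.74 without. Plat, the plasminogen activator whose substrate S100a10 binds, had 5.54 with globules against 4.70 without, and Ppfibp1, a liprin bound by S100a4, 7.59 with globules against 6.81 without. The median of these 16 was 0.40. Of 25 other EF-hand genes above the floor, 3 were higher by 2-fold or more and none was lower by as much; the median was 0.38. Nucb2, nucleobindin 2, had 10.83 with globules against 7.75 without, 8.44-fold higher, Capns1, the small calpain subunit, 9.63 with globules against 7.95 without, 3.21-fold, and Sparc, a matrix glycoprotein, 13.30 with globules against 11.81 without, 2.80-fold. The share at least 2-fold higher was 55.6% (5 of 9) among the S100 genes considered here, with 6.47% over all genes above the floor. It is not a share of the whole family, since none of the 8 other S100 genes was that much higher. Among the 5, S100a10 and S100g passed the floor only through the globule-containing array.

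Of 10 transcription factors above the floor that are known to act on S100a8 and S100a9 in other settings, 2 were at least 2-fold higher and the median was -0.01. Atf3 had 8.14 with globules against 5.95 without, 4.56-fold higher, and Jun, an AP-1 subunit, 8.23 with globules against 6.50 without, 3.33-fold. Stat3 had 7.85 with globules against 8.53 without. Endothelial markers had a median of 0.08 over 9 genes, with Eng, endoglin, at 9.95 with globules against 8.57 without, Cdh5 at 8.11 with globules against 8.91 without and Clec4g at 10.89 with globules against 10.28 without. Alas2, the only erythroid marker measured, had 7.62 with globules against 8.34 without.

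**Figure D4:**
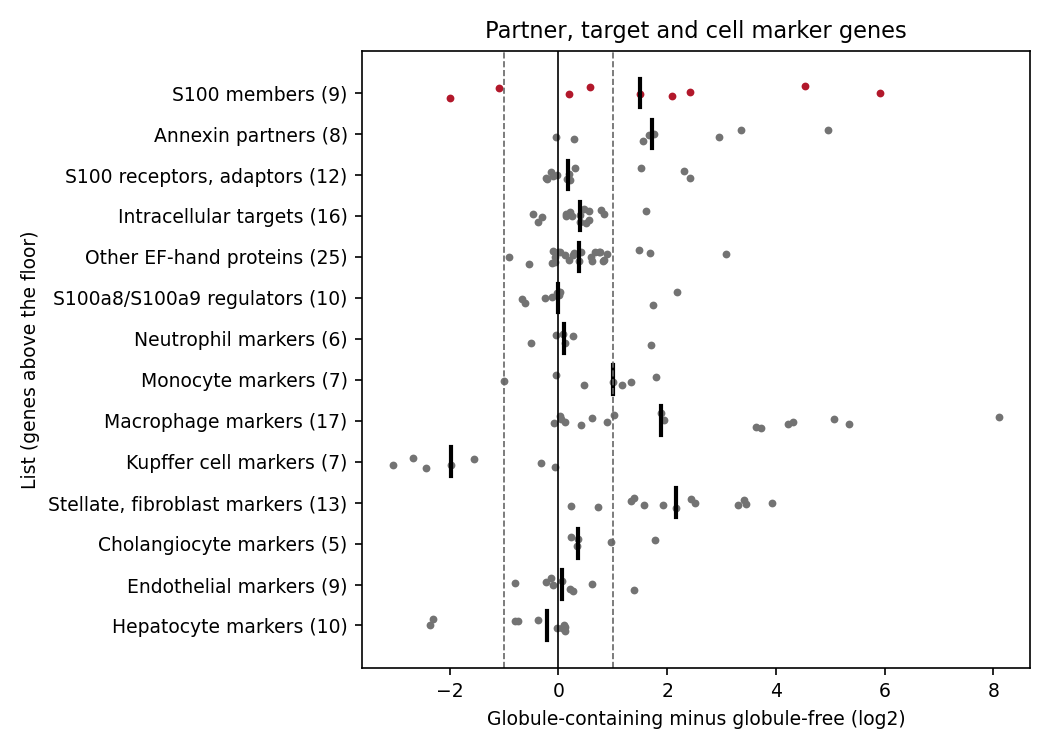
Difference between globule-containing and globule-free areas (horizontal axis, log2) for genes above the floor, 1 point per gene, in the S100 genes (red) and in lists of partners, targets, regulators and cell type markers (grey); numbers in brackets count the genes, and black bars are medians. Dashed lines mark 2-fold. The S100 genes spread on both sides of 0 with a median of 1.49, macrophage and stellate medians lie at 1.90 and 2.17, and the Kupffer cell median at -1.98.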

How the data were processed

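Per the labels' protocols, RNA of the captured areas was purified with a Pico Pure kit and 50 ng went into labelling with NuGen Ovation WTA System V2. The deposited table holds log2 signals of 72688 probe sets on 2 arrays. The Transcriptome Analysis Console made these values, per the submitters' processing notes. Its version is not named, and the normalization, background correction and build were not given in the sources used here. Their log2 scale was read from the values, which run from 1.85 to 19.93.

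Genes were named from the platform annotation. Of the probe sets, 30604 name 1 gene, 2146 name several and were left out, and 39938 list none. By Entrez ID 22818 matched RefSeq (GRCm38.p6), and 827 symbols changed. Several probe sets of a gene were averaged. The floor of 4.76 is the median over probe sets naming 1 gene. The members and lists were chosen with earlier results of these data known. Text names all members, other S100 genes, 5 partners and receptors, and the 3 most different genes above the floor in each list. Granule and bile duct genes at background, Fn1, Ly6c2, Fcgr1, Retnlg, Vdr, Trpv6, Atp2b1, Fgf1 and chromosome neighbours were named after their values were seen. So were the macrophage markers within 2-fold. Genes nearest to the extreme members by signal, planned as a description, are not given, because levels of different probe sets cannot be compared. For the same reason, a summed signal mostly reflects the brightest probe sets of its list. With 1 array per group no test was possible, and the number of arrays limits precision; no paired fit exists. Functions were tested on simulated data. Alternatives were scaling, floor, threshold, probe set choice, dim values and the role of S100a4. Python 3.11.15, numpy 2.4.6, pandas 2.3.3 and statsmodels 0.14.6 were used.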

Additional observations from a re-analysis of the deposited data

How the results depend on the processing

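Each of the 9 differences kept its sign under all 7 alternatives that recompute it. The choice of probe set and the inclusion of those naming several genes could not change them, because each gene has 1 probe set. Raising dim values changes only S100a10, S100a14 and S100g. S100a8 ran between 5.82 and 6.49, S100a9 between 4.44 and 5.11, S100a6 between 2.01 and 2.65, S100g between 1.76 and 2.99, S100a10 between 1.16 and 2.06, and S100a1 between -2.13 and -1.43. The 4 hybridisation controls were lower on the globule-containing array, by 0.57 on average. The 4 poly-A controls were lower there too, by 0.42 on average, and were not used for scaling. Scaling to the hybridisation controls was chosen after seeing the data. It moved the median of all genes above the floor to 0.62, brought S100a13 within 2-fold (-0.53), put S100a4 past it (1.15), left 1 S100 gene at least 2-fold lower, set the median of the 7 epithelial and mesenchymal genes to 1.15, and gave 3414 higher and 349 lower genes over the whole table. With probe sets naming several genes included, which adds S100a11, that median was 1.04. The threshold at 4-fold left 0 S100 genes lower, since S100a1 lies just under it, and gave 213 higher and 198 lower genes in all; at 1.5-fold there were 2406 and 1786. With the floor at the 75th percentile 3 S100 genes were higher, as S100a10 and S100g drop below it, and 642 genes higher in all. The monocyte median was then -0.53, from Ly6c2 and Fn1 alone. No paired analysis was possible because each group is 1 array. Signal over background limits S100a10, S100a14 and S100g, whose globule-free values lie at background.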
